A study of Arabidopsis thaliana with 6 samples.

Results

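The regions described here are SPL7 peaks that lie over highly expressed genes of Arabidopsis thaliana. Members were chosen by a measured value: a peak counted where it overlapped, by at least 1 bp, the locus of a gene entry whose mean FPKM over 4 RNA-seq libraries was at least 400 (FPKM counts fragments per unit of transcript length, relative to the size of the library). Of 1535 peaks in the deposited list, 809 (52.7%) met this rule, another 407 (26.5%) overlapped other loci only, and 319 (20.8%) lay outside every locus in the files. The 809 peaks lay over 600 of the 1817 gene entries of at least 400 FPKM, which are themselves 6.72% of 27052 entries.

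Chromatin for the peaks came from whole seedlings 7 days old that carried a 35S:FLAG-SPL7 transgene and grew on MS (Murashige and Skoog) medium without added copper, precipitated with a FLAG antibody, and spl7 mutant seedlings of the same age and medium were the negative control. The 35S promoter is a viral promoter active in most plant tissues, so the tagged protein was not under the control of the SPL7 promoter. RNA came from 4 groups of whole seedlings of the same age, with 1 library each, and seeds of every ChIP and RNA group had 4 days of cold at 4 °C before growth at 22 °C in continuous white light. The RNA groups were Col-0 wild type on MS, Col-0 wild type on MS with 5 µM CuSO4, spl7 on MS and spl7 on MS with 5 µM CuSO4. No group has a further library, so none of the differences below could be checked in replicates, and p-values are left out. In mixed tissue, fewer cells of a type and less RNA per cell cannot be told apart. The peaks are 1 list from 1 ChIP library, and peaks or genes of 1 list are not replicates. No values of the spl7 control chromatin were analysed here, so the signal of the control over these loci is not known.

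SPL7 belongs to the SBP-domain transcription factors. In copper-poor plants it is known to switch on genes for copper uptake and for proteins that replace copper enzymes, through promoter elements with a GTAC core, and microRNAs in that response lower transcripts of dispensable copper proteins. In ChIP-seq, a peak is a stretch where precipitated fragments pile up, and its score is the peak caller's measure of that pile. The deposited score was used only to rank and describe peaks within the list, and the sources used here do not say what it measures.

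SPL7 itself (AT5G18830, chromosome 5, 6275990 to 6280681) was no member, since its level was 107 FPKM in wild type on MS, 105 FPKM in wild type with copper, 20.2 FPKM in spl7 on MS and 20.7 FPKM in spl7 with copper. It was high in both wild-type libraries and low in both mutant libraries, as the genotype labels say. Its locus held 6 peaks with scores up to 1104; the seedlings also carry SPL7 in the transgene, and its part in these peaks was not tested. Member genes took 45.2% to 48.4% of all FPKM in the 4 libraries, whose sums ran from 4383941 to 4694637 FPKM.

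The share of genes under a peak was larger in each higher class of transcript level. It was 1.11% of entries listed at 0 in all libraries, 1.84% at 50 to 100 FPKM and 6.85% at 200 to 400 FPKM. At 400 to 1000 FPKM it was 14.9% (176 of 1180; exact 95% binomial interval 12.9% to 17.1%), and at 1000 to 2000 FPKM 49.6% (188 of 379; 44.5% to 54.8%). At 2000 to 4000 FPKM 85.7% of 140 genes had a peak (78.8% to 91.1%), at 4000 to 8000 FPKM 55 of 56, and at 8000 FPKM or more 61 of 62. All entries under 400 FPKM together stood at 2.13% (538 of 25235), against 33.0% (30.9% to 35.2%) of all highly expressed entries. The intervals cover counting error only.

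**Figure D1:**
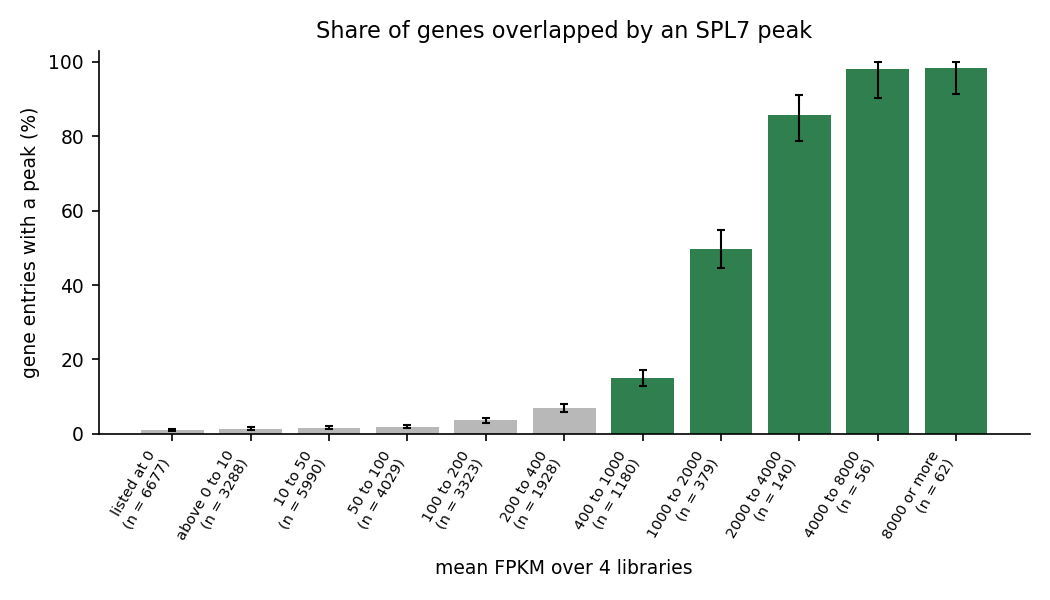
Share of gene entries overlapped by at least 1 SPL7 peak (y axis, %) in classes of mean FPKM over 4 libraries (x axis); green bars are the highly expressed classes and error bars are exact 95% binomial intervals. The share is 14.9% at 400 to 1000 FPKM, 49.6% at 1000 to 2000 FPKM and 98.4% at 8000 FPKM or more.

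Locus length did not go with the share among highly expressed genes. Under 1 kb, 34.9% of 195 loci had a peak; at 5 kb or more, 32.7% of 104 did, and the classes in between stood at 31.6% to 35.2%. Among genes under 400 FPKM the share was 0.772% under 1 kb and 5.27% at 5 kb or more. When entries that share their locus interval with another entry were left out, the shares were 32.6% at 400 FPKM or more and 1.59% below it. The rule itself joined peak and level, so these shares describe the members and test nothing.

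Member peaks had higher medians of width and score than the other peaks of the list. Their median width was 427 bp (quartiles 342 and 654 bp), against 342 bp over other loci and 336 bp outside loci. At least 1000 bp was reached by 81 member peaks (10.0%), by 1 peak over other loci (0.246%) and by 4 outside loci (1.25%). The median score was 266 (quartiles 197 and 527) for members, 198 over other loci and 213 outside loci. A score of at least 1000 was given to 102 members (12.6%), 10 peaks over other loci (2.46%) and 24 outside loci (7.52%). Of the 25 highest-scoring peaks of the list 22 were members, and of the top 100, 78; among the peaks ranked below 800 the share of members was 41.4%. The lower ends of the distributions were close: the first quartile of the score was 197 for members against 183 over other loci.

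**Figure D2:**
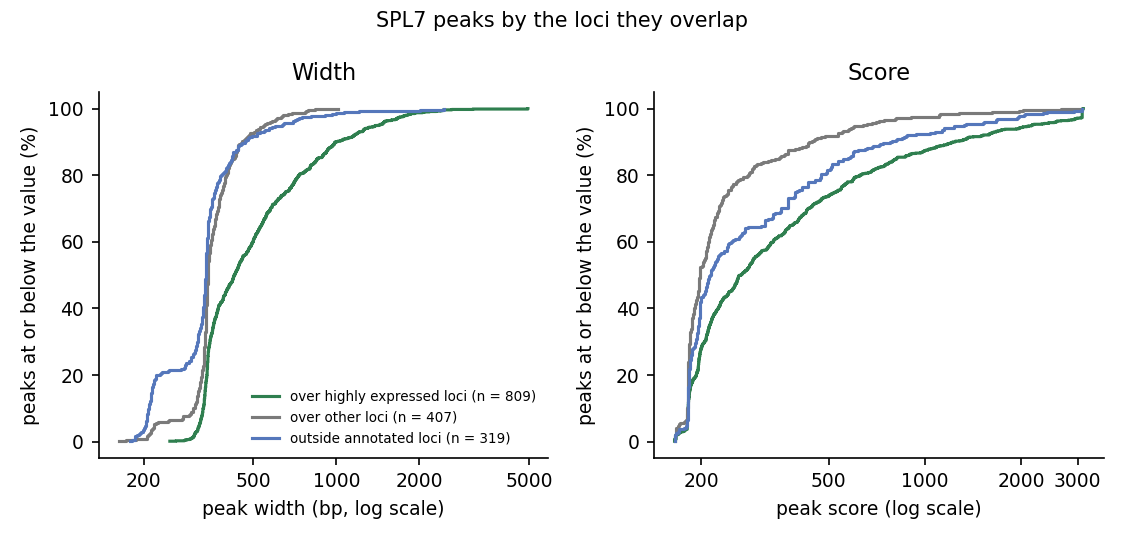
Cumulative distributions of peak width (left, bp, log scale) and peak score (right, log scale) for peaks over highly expressed loci (green), over other loci (grey) and outside loci (blue); the y axes give the share of peaks at or below a value. The green curves lie to the right, with median widths of 427, 342 and 336 bp and median scores of 266, 198 and 213.

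Across the 809 member peaks width and score had a Spearman rho of 0.93, against 0.41 for the 407 peaks over other loci and -0.01 for the 319 outside loci. Across the 600 genes, mean FPKM and the highest score of a gene had a rho of 0.63, and mean FPKM and the covered share of the locus one of 0.65. Among the 407 peaks over other loci, the highest mean FPKM under a peak and the score of that peak had a rho of -0.14. That value is taken per peak, not per gene, and only at levels under 400 FPKM, so it is not like the 0.63. These are descriptions over peaks and genes that share 1 ChIP library and the same 4 RNA libraries. In the class of 400 to 1000 FPKM the median of the highest score was 215, and it was 233, 396, 985 and 2159 in the 4 classes above it. The covered share of the locus had medians of 16.1%, 23.3%, 41.4%, 80.4% and 94.5% in the same order.

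The highest score, 3126, belonged to a peak of 1762 bp over CA1, a chloroplast carbonic anhydrase (chromosome 3, 194937 to 196698). A further 21 member peaks had a score of exactly 3100, so they are tied and ranked here by width. The widest member peak of all covered 4949 bp and 98.4% of GUN5, the H subunit of magnesium chelatase in chlorophyll synthesis (chromosome 5, 4387414 to 4392362). It was followed by ADC2, an arginine decarboxylase of polyamine synthesis (3127 bp), and by FBA2, a chloroplast fructose-bisphosphate aldolase (2432 bp). Next came RCA, the Rubisco activase (2384 bp), PRK, the phosphoribulokinase of the Calvin cycle (2305 bp), and CRD1, a cyclase of chlorophyll synthesis (2082 bp). AT5G25280 (1821 bp), the interval of CPuORF9, a conserved upstream reading frame (1820 bp), and the antenna gene LHCA4 (1787 bp) completed the 10 highest. The narrowest member peak was 249 bp, over the asparagine synthetase gene ASN1, with a score of 218.

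Level and score did not always go together. AT5G25280 had 539 FPKM in wild type on MS, 578 FPKM in wild type with copper, 683 FPKM in spl7 on MS and 628 FPKM in spl7 with copper, yet its peak scored 3100 and covered 73.4% of the locus. Under 1000 FPKM only 3 genes had a score of at least 1000: AT5G25280, AT3G26510 (1147, at a mean of 653 FPKM) and RAP2.4, an ERF/AP2 transcription factor (1104, at a mean of 470 FPKM). The last 2 were chosen after their values were seen. At the other end, 2 of the 116 member genes of at least 4000 FPKM had a highest score under 300: CRB, a chloroplast RNA-binding protein (298), and GASA1, a gibberellin-regulated peptide (235), also chosen after their values were seen.

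**Figure D3:**
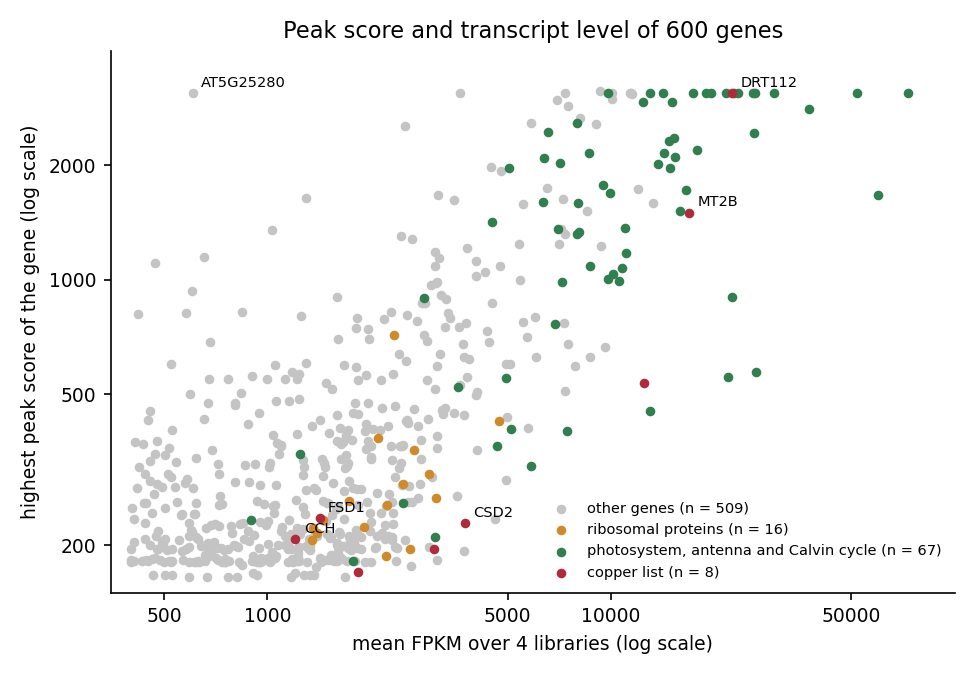
Highest peak score of each of the 600 member genes (y axis, log scale) against its mean FPKM over 4 libraries (x axis, log scale), with genes of the photosystem, antenna and Calvin cycle lists, ribosomal proteins and the copper list coloured. Score and level go together (Spearman rho 0.63). The copper genes FSD1, CCH and CSD2 lie at scores of 208 to 236, and AT5G25280 lies high at 607 FPKM.

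Member peaks were spread along their loci, which the rule requires them to overlap. Of 809 member peaks, 581 (71.8%) were wholly inside a highly expressed locus, 228 (28.2%) crossed the edge of one, and 798 (98.6%) had their midpoint inside one. Of the 819 pairs of a peak and a gene, 401 (49.0%) had the midpoint in the central 50% of the locus, 264 (32.2%) between 10% and 25% of its length from an end, 142 (17.3%) within 10% of an end and 12 beyond the locus. An even spread of points would put 50%, 30% and 20% in these zones. A single peak that covers most of a locus has its midpoint near the centre, so these shares do not test an even spread of peaks. The files give no strand, so start and end of transcription cannot be told apart. Peaks covered a median of 29.6% of a locus (quartiles 16.0% and 56.2%), over 90% of 59 loci and under 10% of 62 loci. Of the member peaks 137 also overlapped a lower locus, and 96 of the 600 genes (16.0%) share their interval with another entry.

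Most member genes had 1 peak: 434 of 600 (72.3%). There were 2 peaks over 126 genes, 3 over 30, 4 over 8, 5 over GLU1 and 6 over GLDP2. Genes with 2 or more peaks had a median locus of 2469.5 bp and a median level of 2457 FPKM, against 1851.5 bp and 1295 FPKM for those with 1. The share with 2 or more peaks was 10.2% at 400 to 1000 FPKM, 54.5% at 4000 to 8000 FPKM and 26.2% at 8000 FPKM or more, where 1 peak often covered most of the locus. GLDP2, a P protein of glycine decarboxylase in photorespiration, was measured at 3278, 2842, 3088 and 3129 FPKM in wild type on MS, wild type with copper, spl7 on MS and spl7 with copper. Its 6 peaks, for which it was chosen after its values were seen, had scores from 181 to 1179 and covered 74.1% of 4826 bp. GLU1, the ferredoxin-dependent glutamate synthase, had 5 peaks that covered 26.0% of 8591 bp, with scores from 184 to 460. SHM1, the mitochondrial serine hydroxymethyltransferase of photorespiration, and CLPC1, a chloroplast chaperone, had 4 each. Among genes with 3 were PSI-P, which encodes a thylakoid membrane protein, the transketolase gene AT3G60750, the aquaporin gene PIP2A, the photorespiratory aminotransferase gene GGT1 and the Calvin cycle phosphatase gene SBPASE.

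**Figure D4:**
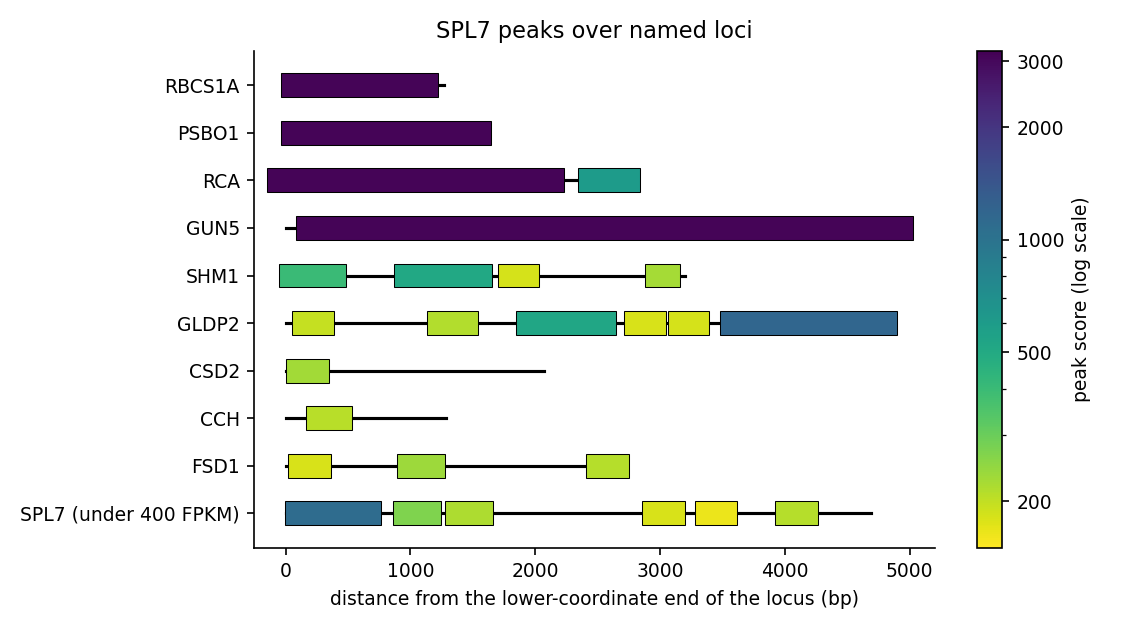
Peaks (boxes, coloured by score on a log scale) along 10 loci (black lines); the x axis is the distance in bp from the end of the locus with the lower coordinate, without regard to strand. Peaks with scores of 3100 span most of RBCS1A, PSBO1, RCA and GUN5, GLDP2 holds 6 peaks, and each peak over CSD2, CCH and FSD1 is under 400 bp wide.

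Gene functions were described with 21 lists, which hold 379 of the 1817 highly expressed genes and 196 of the 600 member genes. The lists were matched on gene symbols and synonyms, so a gene whose names do not state its role is missing from its list. All 16 Rubisco and Calvin cycle genes had a peak. So did 36 of 41 photosystem and electron transport genes (87.8%) and 17 of 21 genes on the antenna list (81.0%). The antenna genes without a peak were ELIP1, ELIP2, LHCA5 and LHCA6. RBCS1A, a Rubisco small subunit, was the most abundant member, with 80300 FPKM in wild type on MS, 73508 FPKM in wild type with copper, 73393 FPKM in spl7 on MS and 65080 FPKM in spl7 with copper. Its peak (chromosome 1, 25048118 to 25049378, score 3100) covered 96.4% of the locus. The antenna gene CAB1 stood at 59695, 56220, 65020 and 57709 FPKM in the same order of libraries, with a score of 1669 and full cover. CAB2, a near-identical neighbour from which reads are hard to tell apart, had a mean of 26370 FPKM and a highest score of 571. PSBO1, of the oxygen-evolving complex, stood at 21720, 20273, 24500 and 20164 FPKM, and its peak scored 3100. Each of these genes was at a similar level in the 4 libraries. All 17 antenna, 30 photosystem and 14 Calvin cycle genes of at least 4000 FPKM had a peak, where 116 of all 118 genes of that level did.

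Among the other metabolic lists, photorespiration and nitrogen assimilation had peaks over 8 of 9 genes each, where 33.0% of all highly expressed genes had one. The median levels of these lists were 3813 and 1200 FPKM, classes in which 85.7% and 49.6% of all genes had a peak. AGT, the peroxisomal aminotransferase of photorespiration, had a score of 2988, and GLDP1 one of 2870. NIA2, a nitrate reductase, had 4915 FPKM in wild type on MS, 3994 FPKM in wild type with copper, 5181 FPKM in spl7 on MS and 3847 FPKM in spl7 with copper, and peaks covered 96.2% of it. GS2, the chloroplast glutamine synthetase, had a highest score of 1319 and NIR1, the nitrite reductase, one of 603. Peaks also lay over 6 of 8 glucosinolate and myrosinase genes, 6 of 8 methionine and S-adenosylmethionine genes and 9 of 14 aquaporin genes, lists with median levels of 2362, 1677 and 2310 FPKM. The tonoplast aquaporin gene TIP2 had a score of 2569 over 98.8% of its locus, and the S-adenosylmethionine synthetase gene MTO3 one of 3100. Of 15 lipid and 11 glycolysis genes, 8 and 6 had peaks, with scores of 2537 over the desaturase gene FAD2 and 820 over the dehydrogenase gene GAPC2. Cold and dehydration genes had peaks in 9 of 19 cases. No difference of a list from other genes of its level was tested.

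The remaining lists were near or below the share of all highly expressed genes, 33.0%. Of the 48 genes on the ribosomal protein list 16 (33.3%) had a peak, with a median highest score of 259 and none of at least 1000. Ribosomal protein genes entered under a locus code alone may be missing from this list, so its shares are those of the listed genes. None of their 13 genes at 400 to 1000 FPKM, 6 of 22 at 1000 to 2000 FPKM and 9 of 12 at 2000 to 4000 FPKM had one, where all genes of these classes stood at 14.9%, 49.6% and 85.7%. All 3 shares lay below those of all genes. Their exact 95% binomial intervals, 0% to 24.7%, 10.7% to 50.2% and 42.8% to 94.5%, each hold the value of all genes. With 12 to 22 genes in a class these intervals are too wide to decide whether the list differs from other genes of its level. SSR16, a chloroplast ribosomal protein, had the highest level among them, 4707 FPKM, and a score of 425. Histones had peaks in 2 of 14 cases, the cytoskeleton in 2 of 15, proton pumps in 3 of 12, chaperones in 6 of 21, ubiquitin in 4 of 13, translation factors in 4 of 12, the cell wall in 11 of 31 and redox enzymes in 13 of 35. The lists differ in level: the median of highly expressed members was 1423 FPKM for ribosomal proteins, 831 FPKM for histones, 8604 FPKM for photosystem genes and 14889 FPKM for antenna genes. Scores of at least 1000 occurred in 4 of these lists and in none of the ribosomal protein, translation factor, histone, ubiquitin and proton pump genes. HSC70-1, a cytosolic heat shock cognate, had a score of 2580 at a mean of 5848 FPKM. The profilin gene PFN2 had a score of 1306, the glutathione transferase gene GSTU19 one of 1668 and the cell wall protein gene CWLP one of 1142. Below 1000 were the highest scores of the elongation factor gene LOS1, 967, and of the polyubiquitin gene UBQ10, 663.

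Of the copper list, 8 of the 15 highly expressed genes had a peak, as did 3 of the 48 below 400 FPKM (6.25%): SPL7, COX17, which shares its interval with MT3, and MT1A, listed at 0, which shares its interval and its peak with the member gene AT1G07590. FSD1 (AT4G25100), which encodes a chloroplast superoxide dismutase with iron in place of copper, had 5647 FPKM in wild type on MS, 14.0 FPKM in wild type with copper, 7.64 FPKM in spl7 on MS and 9.38 FPKM in spl7 with copper. It was high in wild type on MS alone, and without that library it would not be a member. Its 3 peaks (chromosome 4, 12884321 to 12884661, 12885190 to 12885578 and 12886704 to 12887053) had scores of 181, 236 and 211. CCH, a copper chaperone, stood at 2929, 615, 703 and 579 FPKM in the same order of libraries, again highest in wild type on MS. Its peak (chromosome 3, 20863422 to 20863788) scored 208. CSD2, the copper/zinc superoxide dismutase of the chloroplast and a microRNA target, stood at 466, 5164, 4929 and 4444 FPKM, lowest in wild type on MS. Its peak (chromosome 2, 12014504 to 12014846) scored 229. The scores over FSD1, CCH and CSD2 lay below the median score of all member peaks, 266. By mean level FSD1 (1420 FPKM) and CCH (1207 FPKM) fell in the class of 1000 to 2000 FPKM. There the median of the highest score was 233, with quartiles of 196 and 366. CSD2 (mean 3751 FPKM) fell in the class of 2000 to 4000 FPKM, with a median of 396 and quartiles of 259 and 682. The highest score of FSD1 was just above its class median, that of CCH within the quartiles and that of CSD2 below them.

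The other copper members varied little between libraries. DRT112, a plastocyanin, the copper protein of photosynthetic electron transport, stood at 22591, 21947, 24703 and 20994 FPKM, and its peak of 966 bp scored 3100. PETE1, the other plastocyanin gene, stood at 1699, 1779, 2060 and 1808 FPKM, with a score of 170. The metallothionein genes MT2B, MT3 and MT2A, whose proteins bind metals, had mean levels of 16835, 12510 and 3044 FPKM and highest scores of 1500, 534 and 196. MT2A stood at 2466, 2985, 3279 and 3445 FPKM, lowest in wild type on MS. MT2B and MT3 share their intervals with other entries. The highly expressed copper genes without a peak were CSD1, MSD1, CCS, ATX1, COPT5, PAA1 and COPT1. RefSeq gives the symbols ATX1 and PAA1 to a further locus with no entry here, so their intervals may belong to another gene than their FPKM. CSD1, the cytosolic copper/zinc superoxide dismutase, stood at 186, 1985, 2090 and 2035 FPKM, a pattern like that of CSD2, with no peak over its interval.

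Transcript ratios were taken as log2 of FPKM + 1, and higher or lower means a ratio of at least 2-fold in a gene with at least 5 FPKM in either library. In spl7 against wild type on MS, 4 of 600 member genes (0.667%) were higher and 2 (0.333%) lower, where 0.541% and 1.05% of 18658 genes were. With copper, 4 were higher and 0 lower in spl7, where 0.989% and 0.814% of 18805 genes were. Added copper in wild type left 2 higher and 2 lower (0.333% each), where 0.950% and 0.379% of 18742 genes were. Added copper in spl7 left 2 higher and 0 lower, where 1.99% and 0.524% of 18707 genes were. The lower members of both genotype comparisons, the higher members of both copper comparisons and the lower members with copper in spl7 were below the shares of all genes, and the other 3 counts were near them. Of the 1217 highly expressed genes without a peak, 4 were higher and 0 lower in spl7 on MS. In spl7 with copper 1 was higher, with added copper in wild type 3 and in spl7 2, and 0 were lower. These shares, 0.329%, 0.0822%, 0.247% and 0.164% higher and 0% lower, were also below those of all genes. The comparisons share libraries and are not independent of each other. Over all 4, 8 member genes were 2-fold apart at least once and 572 were never 1.5-fold apart. These 2 counts were not taken for other genes, so they show no trait particular to members.

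Beside FSD1, CCH and CSD2, with log2 ratios of -9.35, -2.06 and 3.40 in spl7 against wild type on MS and -8.55, -2.25 and 3.47 for added copper in wild type, 5 other genes were counted. DIN2, a beta-glucosidase gene known to be induced in darkness, had 845 FPKM in wild type on MS, 613 FPKM in wild type with copper, 1862 FPKM in spl7 on MS and 1623 FPKM in spl7 with copper. BGLU28, another beta-glucosidase, stood at 766, 647, 1871 and 1615 FPKM in the same order. BCA3, which shares its interval, stood at 593, 652, 1306 and 1620 FPKM. All 3 were higher in both spl7 libraries than in either wild-type library, with log2 ratios of 1.14, 1.29 and 1.14 on MS and 1.40, 1.32 and 1.31 with copper. AZI1, a lipid transfer-like protein of systemic immunity, stood at 473, 656, 456 and 1943 FPKM, highest in spl7 with copper (log2 ratio 2.09 for added copper in spl7 and 1.57 for spl7 against wild type with copper). The related pEARLI 1 stood at 310, 955, 299 and 1248 FPKM, higher with copper in both genotypes, with log2 ratios of 1.62 in wild type and 2.06 in spl7.

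**Figure D5:**
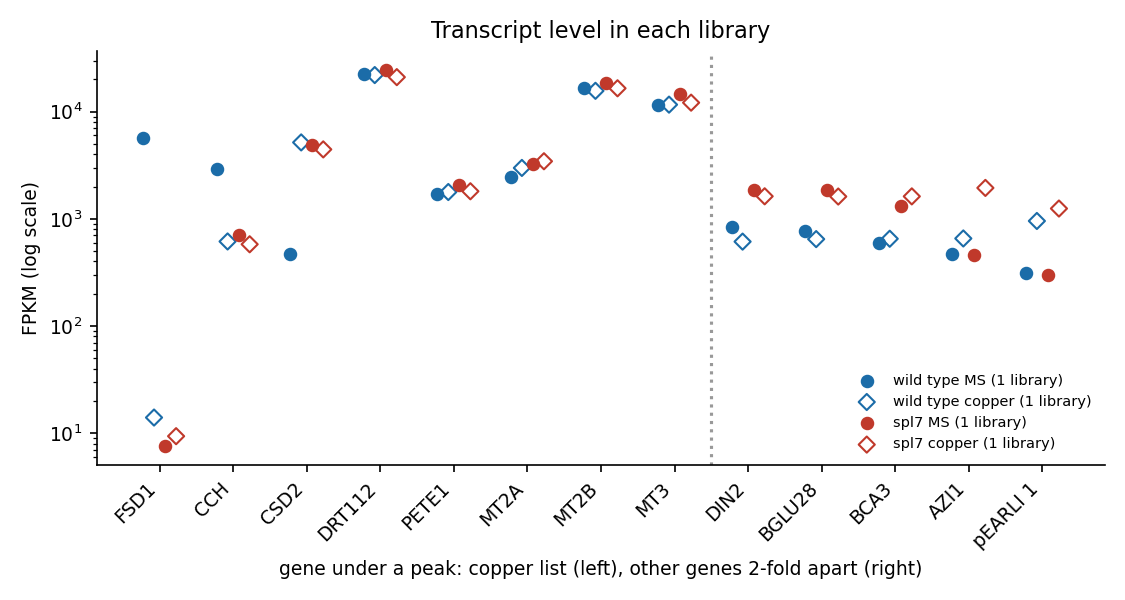
FPKM (y axis, log scale) of 13 member genes in each of 4 libraries; blue is wild type and red spl7, filled circles are MS and open diamonds MS with copper, each point 1 library. FSD1 and CCH are highest and CSD2 lowest in wild type on MS, whereas DRT112, PETE1 and the metallothionein genes are less than 2-fold apart.

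Smaller shifts were shared by many members. In spl7 against wild type on MS the median log2 ratio of members was 0.07 and 64.5% were above 0, against a median of 0.0 and 49.7% for all genes counted. Highly expressed genes without a peak had a median of 0.01, with 52.6% above 0. The 17 antenna members were all above 0, with a median of 0.25 and a range of 0.09 to 0.54, and 32 of 36 photosystem members were, with a median of 0.17. The 16 ribosomal protein members had a median of -0.08. For added copper in spl7 the median of members was -0.12 and 24.2% were above 0, against -0.03 and 43.2% for all genes. Highly expressed genes without a peak lay in between, with a median of -0.06 and 33.5% above 0. All 17 antenna, 36 photosystem and 16 Calvin cycle members were below 0 there, with medians of -0.28, -0.26 and -0.18. Of the photosystem genes without a peak 0 of 5 were above 0 there (median -0.23), and of the antenna list 2 of 4 (median 0.02). In spl7 against wild type on MS 4 of these 5 and 2 of these 4 were above 0, with medians of 0.01 and -0.04. These 2 comparisons share the spl7 library on MS, which also had the highest sum of FPKM, 4694637. With libraries rescaled to equal sums, an alternative chosen after the data were seen, the member medians were 0.01 and -0.02 and the shares above 0 were 52.7% and 45.2%. On that scale all 17 antenna members were still above 0 in spl7 on MS, with a median of 0.19, and 1 of 17 was above 0 for added copper in spl7, with a median of -0.18. The photosystem medians were then 0.10, with 29 of 36 above 0, and -0.16, with 2 of 36 above 0. The Calvin cycle median for added copper in spl7 was -0.08, with 2 of 16 above 0. The Calvin cycle median in spl7 against wild type on MS was 0.03 as deposited and -0.04 at equal sums. CaS, a chloroplast calcium-sensing protein with 3010, 1542, 1550 and 1408 FPKM, passed 2-fold in spl7 on MS only at equal sums, where the lower members were 3, and is named for that. With copper, spl7 members against wild type had a median of -0.01, and for added copper in wild type the median was -0.04. There 1 of 17 antenna, 1 of 36 photosystem and 1 of 16 Calvin cycle members were above 0, with medians of -0.09, -0.09 and -0.1. At equal sums 2, 5 and 4 were, with medians of -0.06, -0.06 and -0.07. In spl7 against wild type with copper, 14 of 17 antenna members were above 0 (median 0.08), 19 of 36 photosystem and 5 of 16 Calvin cycle members. Of the ribosomal protein members 0 of 16 were above 0 there (median -0.15), and 4 of the 32 listed genes without a peak (median -0.22). At equal sums 3 of 16 ribosomal protein members were above 0 in spl7 on MS and 0 of 16 with copper. Both medians were then -0.14.

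Among the highly expressed genes without a peak the median level was 610 FPKM, against 1618 FPKM for members. Of the 118 genes of at least 4000 FPKM only CAT2 and GRP23 had none. Their rows in the files give intervals on chromosome 1, and the gene symbols belong in RefSeq to more than 1 locus. CAT2 stood at 16644, 15706, 18525 and 17484 FPKM and is listed at AT1G58030, whereas RefSeq also gives that symbol to AT4G35090, a catalase gene with no entry here. Between AT4G35080 and PIP3, the neighbours of AT4G35090, lay a peak of 2459 bp with a score of 3100 (chromosome 4, 16700530 to 16702988), which counted as outside loci. GRP23, at 5270, 4707, 4757 and 3935 FPKM, is listed at AT1G10270, and RefSeq gives the symbol also to AT2G32690; the gap that holds that locus had 2 peaks with scores up to 404. Which locus the FPKM of either row belongs to cannot be told from the files. Of the highly expressed entries 51 have such a symbol; 42 of them had no peak over the listed interval, and for 9 of these a peak lay in the gap that holds the other locus. The next highest genes without a peak were AT5G20290 (3302 FPKM), the acyl carrier protein gene ACP4 (3220 FPKM) and the acyl-CoA-binding protein gene ACBP6 (2994 FPKM), named after their values were seen.

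At the threshold, the members with the lowest mean levels were AT1G06640 (401 FPKM, score 183) and XTR8 (402 FPKM, score 181). Just outside it were HCF101, whose mean lay below 400 FPKM before rounding (score 214), and FLA18 (398 FPKM, score 183). By chromosome, member peaks were 62.5% of 341 peaks on chromosome 1 and 35.6% of 331 on chromosome 2, with 56.4%, 58.1% and 52.3% on chromosomes 3 to 5. The share of highly expressed genes with a peak ran only from 28.3% on chromosome 5 to 37.2% on chromosome 3.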

How the data were processed

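The authors made the FPKM with TopHat and Cufflinks on TAIR10, after CASAVA 1.8.2, per the submitters' processing notes; only uniquely mapped reads were used, per the series description. Peaks and their score are as deposited, from reads that Bowtie mapped to the same build, per those notes; the peak names carry MACS, and for its version, threshold and use of the control nothing is stated in the labels. Depth is unknown. Locus starts in the files count from 0, and 1 was added, since 3889 of 7433 entries with the RefSeq end had a start 1 lower.

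Ratios are log2 of FPKM + 1; peaks, shares, medians and ratios were computed with Python 3.11.15, pandas 2.3.3 and scipy 1.17.1, figures with matplotlib 3.10.9, and both counting rules were tested on simulated data. Members and lists were chosen with earlier results of these data known. After the values were seen, 46 genes were taken out of lists that their names had matched wrongly. Named genes were those of the 10 highest-scoring peaks, up to 8 with most peaks, those 2-fold apart, up to 4 of each list by level, the copper list, and those at the threshold or of extreme width; others are said to be chosen later, and 1 is not reported here. Names came from RefSeq (TAIR10.1), which matched 593 of the 600 genes. Motifs had been planned; sequence was not analysed here. Alternatives were other thresholds, flanks, scores, pseudocounts, folds, rescaled libraries, each library left out and, added after the data were seen, equal sums of FPKM and entries without a shared interval.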

Additional observations from a re-analysis of the deposited data

Results flagged for a closer look

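Of 600 member genes, 181 had log2 ratios of opposite sign for added copper in the 2 genotypes. For spl7 against wild type on the 2 media 141 did. The share over all genes was not counted, so these 2 counts show no trait particular to members. In 3 genes at least 1 of the ratios was also 2-fold or more. With 1 library each, the differences were not tested. Added copper gave CSD2 log2 ratios of 3.47 (wild type) and -0.15 (spl7), and FSD1 log2 ratios of -8.55 (wild type) and 0.26 (spl7). The comparison of spl7 with wild type gave CSD2 log2 ratios of 3.40 (MS) and -0.22 (copper), and AZI1 log2 ratios of -0.05 (MS) and 1.57 (copper). The smaller ratio of each pair lay between -0.22 and 0.26, near 0.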

How the results depend on the processing

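With 1 list and 1 library per group, the values describe these libraries alone, the depth behind each FPKM is unknown, and near-identical genes and shared intervals are uncertain. Of 73 settings 58 left a value close to the reported one and 15 moved it. These values were counts, medians and shares without a sign, so none could be reversed. Close meant within 1.5-fold for a count and inside its 95% interval for a median or share. All 600 members passed the minimum of 5 FPKM in every comparison, so leaving it out could change no count. The shifts used to rescale libraries were 0.0 or -0.03, so that setting could change little. Of ratios of single genes 45 stayed close, 3 of FSD1 moved and 0 reversed. With higher-scoring peaks alone there were 491 member peaks over 397 genes, 21.8% of highly expressed genes. Thresholds of 200 and 800 FPKM gave median widths of 405 and 454 bp, median scores of 246 and 290, and shares with a peak of 19.5% and 56.6%; flanks of 1000 bp gave a share of 36.0%. At 1.5-fold, 23 of 600 members were counted for spl7 against wild type on MS, 19 higher and 4 lower, where 2.36% and 3.16% of all genes were. With copper 9 were, all higher, where 2.63% and 2.06% of all genes were higher and lower. For added copper in spl7 6 were, 2 higher and 4 lower, where 4.48% and 1.89% were. At 4-fold, 3 were counted for spl7 against wild type on MS, 1 higher and 2 lower (0.316% and 0.531% of all genes), and 0 with copper (0.351% and 0.532%). Without 1 library in turn there were 803 to 813 member peaks and 594 to 604 genes. No paired analysis was possible because each group has 1 library.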
